A study of Homo sapiens with 9 samples.

Results

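A set of 10 genes through which tumour cells meet or escape immune cells was followed in MDA-MB-231, an established human line of basal-like breast cancer: SIRPA, CD47, CD274, PDCD1LG2, CD276, SERPINB9, TNFSF18, NT5E, ULBP2 and MICA. They are 10 of the 61155 gene symbols in the tables, all 10 were measured, and all 10 passed the filter on low counts that 17759 symbols passed. They were chosen by function with earlier results of these libraries known, so their own changes are given as a description, without p-values. Total RNA was sequenced in 9 libraries. WT is 3 libraries of cells that carry FBXL12 and were transduced with a scrambled control guide RNA, and KO1 and KO2 are 3 libraries each of an FBXL12 knockout clone of the same line. FBXL12 encodes an F-box protein, the substrate-binding part of an SCF ubiquitin ligase. A clone descends from 1 cell, so the knockout was sampled in 2 clones against 1 control population. What is particular to a clone cannot be told apart from the effect of the deletion, and both clones are compared with the same WT libraries. Replicates are numbered 1 to 3 per group, and no label ties a number to a culture of its own. The p-values here therefore reflect the scatter of these libraries alone, and that scatter may be technical.

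CD47 on a tumour cell binds SIRPA, an inhibitory receptor best known on macrophages, and restrains phagocytosis. CD274 (PD-L1) and PDCD1LG2 (PD-L2) bind PD-1 on T cells, and CD276 (B7-H3) is another member of the B7 family of checkpoint ligands. ULBP2 and MICA are stress-induced ligands of the activating receptor NKG2D on natural killer and T cells, SERPINB9 inhibits granzyme B, TNFSF18 is the ligand of the receptor GITR, and NT5E (CD73) is the ectoenzyme that forms adenosine from AMP. SERPINB9 works in the cytosol and is the one product of the set that is not a surface protein.

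Sequences upstream of the annotated starts are shown for the 3 genes that separate the patterns described here. TNFSF18 was high in KO1 and nearly silent in KO2, SERPINB9 was low in both clones, and CD274 was higher in KO1 and lower in KO2. Where transcription starts in these cells was not mapped. The sequences are from RefSeq (GRCh38.p14), which matched 8 of the 10 genes, all but SIRPA and PDCD1LG2. They run 5′ to 3′ on the strand of the gene and stop at the RefSeq start, or before it where the gene as annotated in GENCODE release 29 begins earlier. For SERPINB9 the GENCODE gene begins further downstream, at chr6:2903280. The TNFSF18 stretch therefore ends 22 bases short of the RefSeq start and the CD274 stretch 39 bases short, whereas that of SERPINB9 reaches it. TNFSF18 is at chr1:173050964-173051191 on the minus strand, SERPINB9 at chr6:2903310-2903559 on the minus strand and CD274 at chr9:5450292-5450502 on the plus strand. Capitals mark motif matches.
TNFSF18: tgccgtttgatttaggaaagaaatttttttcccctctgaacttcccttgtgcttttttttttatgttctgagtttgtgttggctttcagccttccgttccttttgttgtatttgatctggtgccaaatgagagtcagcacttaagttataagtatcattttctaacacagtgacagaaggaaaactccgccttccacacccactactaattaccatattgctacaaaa
SERPINB9: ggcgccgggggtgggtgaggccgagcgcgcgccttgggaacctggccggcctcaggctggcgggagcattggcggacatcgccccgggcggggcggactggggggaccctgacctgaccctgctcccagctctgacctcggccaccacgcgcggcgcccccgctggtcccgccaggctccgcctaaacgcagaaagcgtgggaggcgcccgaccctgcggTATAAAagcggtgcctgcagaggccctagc
CD274: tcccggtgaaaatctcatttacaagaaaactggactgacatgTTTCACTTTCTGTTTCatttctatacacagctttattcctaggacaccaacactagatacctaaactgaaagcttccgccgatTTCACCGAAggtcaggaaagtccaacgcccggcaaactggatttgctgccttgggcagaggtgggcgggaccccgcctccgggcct

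Both strands of the 250 bases before each start were searched for 5 motifs: the TATA box TATAAA, the AP-1 site TGACTCA, the interferon-stimulated response element (GAAA, any 2 bases, GAAA), the gamma-activated site TTCNNNGAA and the NF-kB site. CD274 held the response element at 2 overlapping places on its minus strand, TTTCACTTTC at -208 to -199 and TTTCTGTTTC at -202 to -193, counted from the RefSeq start, and the gamma-activated site TTCACCGAA at -125 to -117. SERPINB9 held a TATA box at -30 to -25, and the window before the second listed start of CD276 held the NF-kB match GGGGGCTCCC at -68 to -59. No match of the 5 motifs lay in the windows of TNFSF18, CD47, NT5E, ULBP2 or MICA. Of 35116 RefSeq promoters, 3.02% held the response element, 6.57% the gamma-activated site, 10.7% TATAAA, 9.96% the NF-kB site and 4.2% the AP-1 site. A match describes letters and not binding.

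FBXL12 itself was lower in both clones and still detected. Its level was 22.2, 23.3 and 21.4 CPM (a gene's counts relative to the TMM-adjusted total of its library) in the libraries of WT, 9.56, 9.95 and 9.4 in those of KO1 and 6.14, 6.36 and 5.33 in those of KO2, and no groups overlapped. Total counts ran from 52427841 to 97243363 per library, so the limit that a count of 0 allows, 3 counts, lay between 0.0309 and 0.0572 CPM. Markers of this mesenchymal, basal-like line were abundant in each group, in the order WT, KO1 and KO2: VIM at 2810, 2760 and 3330 CPM, CD44 at 1030, 1380 and 1770, EGFR at 527, 459 and 817, and CAV1 at 812, 931 and 556. Of the luminal and epithelial markers, PGR had 0 counts in every library, ESR1 had 1 to 14 and CDH1, the epithelial cadherin, had 0 to 8. Low levels of others were present: GATA3 at 5.76, 6.41 and 4.69 CPM, FOXA1 at 3.90, 3.86 and 2.73, and EPCAM at 1.77, 4.52 and 0.824, which differed 5.40-fold between the clones (edgeR adjusted p = 6.25e-08). Because RNA was taken from whole cultures, fewer cells that express a gene and less RNA per cell cannot be told apart.

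Per kilobase of exon, NT5E was the most abundant of the 10 in each group, at 100 CPM per kb in WT, 141 in KO1 and 159 in KO2. In WT came ULBP2 at 10.9 CPM per kb, then CD276 at 9.93, CD274 at 9.91, CD47 at 9.89 and TNFSF18 at 9.87, and the libraries of these last 4 overlapped. MICA at 2.57, SERPINB9 at 2.29 and PDCD1LG2 at 2.07 CPM per kb formed a lower step, in which MICA and SERPINB9 overlapped. SIRPA was lowest in WT, at 0.219 CPM per kb. In KO1, TNFSF18 stood next to NT5E at 18.3 CPM per kb, above ULBP2 at 15.6, and CD47, CD276 and CD274 followed at 12.7, 12.4 and 11.7 with overlapping libraries. In KO2, ULBP2 at 17.3 and CD47 at 13.4 CPM per kb came after NT5E, CD276 and CD274 had moved down to 6.43 and 5.09, and TNFSF18 was lowest, at 0.195. SIRPA in KO2, at 1.52 CPM per kb, lay above SERPINB9 at 0.928, the reverse of WT.

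**Figure D1:**
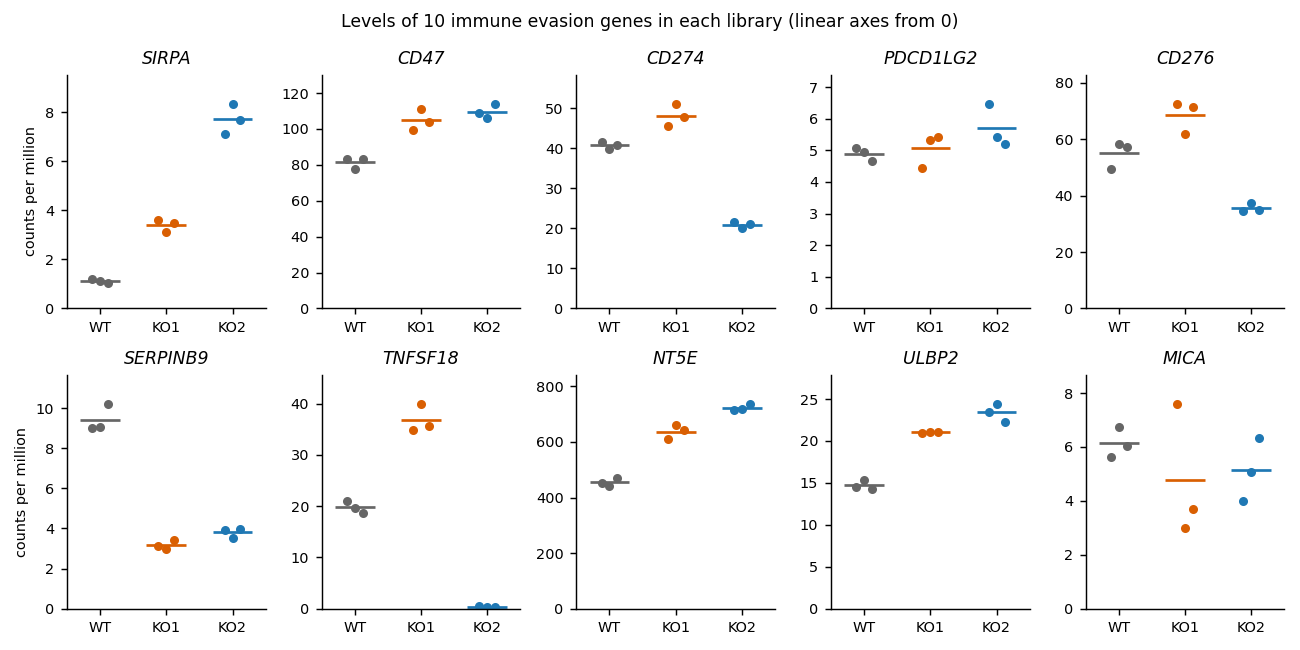
CPM in each of the 9 libraries, 1 panel per gene with its own axis from 0; points are libraries, grouped as WT, KO1 and KO2, and bars are group means. SIRPA steps up from WT to KO1 to KO2, TNFSF18 is near 0 in the 3 KO2 libraries, SERPINB9 is low in both clones, and 1 KO1 library of MICA lies above the other 2.

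By the threshold used over all genes, an edgeR quasi-likelihood test with a Benjamini-Hochberg adjusted p under 0.05, KO1 against WT placed 7 of the 10 genes higher and 1 lower, beside 34.8% of all tested genes called in either direction (18% higher and 16.8% lower). KO2 against WT placed 4 higher and 4 lower, beside 49.4% of all genes (24.7% higher and 24.7% lower). KO1 against KO2 placed 3 higher and 4 lower, beside 48.9% (23.9% higher and 24.9% lower). When 1 library was left out, 5 or 6 of the 10 were called in that contrast. Called changes of at least 2-fold were seen for 2 of the 10 genes in KO1 (3.55% of all genes), 3 in KO2 (9.75%) and 3 between the clones (10.2%). Since the genes were chosen with these contrasts in view, nothing is read from these counts. Libraries did not overlap for 8 of the 10 genes in KO1 against WT, where 46.5% of all genes did not, for 9 in KO2 against WT, where 58.8% did not, and for 7 between the clones, where 55.1% did not. The median log2 change of the 10 was 0.34 in KO1 (0 over all genes) and -0.02 in KO2 (-0.01 over all genes). Their median absolute change was 0.43 and 0.67, beside 0.21 and 0.29 over all genes. Between the clones the median was -0.13 (-0.01 over all genes), and the median absolute change of 0.22 was below the 0.29 of all genes.

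SIRPA, the receptor of the pair, had the lowest level of the set in WT and was higher in both clones. Its level was 1.21, 1.10 and 1.02 CPM in the libraries of WT, 3.59, 3.10 and 3.49 in those of KO1 and 7.12, 8.35 and 7.70 in those of KO2. The 3 groups did not overlap, and the counts behind them were 64 to 119 in WT, 245 to 304 in KO1 and 372 to 550 in KO2. The mean was 1.11 ± 0.0966 CPM in WT (SD, n = 3, as for all such values), 3.39 ± 0.257 in KO1 and 7.72 ± 0.614 in KO2. That was a log2 change of 1.60 ± 0.12 (standard error) in KO1, or 3.03-fold, and of 2.79 ± 0.12 in KO2, or 6.91-fold. KO1 lay below KO2 by a log2 difference of -1.19 ± 0.11. SIRPA lies at chr20:1894167-1940592 on the plus strand (GRCh38), and the median log2 change of the 20 nearest tested genes was -0.06 in KO1 and 0.03 in KO2.

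SIRPA shares sequence with its relatives, and the sources used here do not state how reads with several possible places were counted. Of the 50-base stretches of its transcripts, 15.1% also occur in another gene, 10.6% in SIRPB1 and 0.455% in SIRPG. SIRPB1, an activating relative, stood at 0.356, 0.214 and 0.365 CPM in the libraries of WT, 2.13, 2.30 and 1.87 in those of KO1 and 1.21, 1.11 and 0.568 in those of KO2. It rose by a log2 change of 2.72 ± 0.26 in KO1 (edgeR adjusted p = 1.84e-06) and 1.58 ± 0.29 in KO2 (adjusted p = 0.000297). SIRPB1 was thus highest in KO1, whereas SIRPA was highest in KO2. SIRPG, a further CD47-binding member of the family, had 1 count in each WT library, 0.859, 0.937 and 0.562 CPM in KO1 and 0.230, 0.167 and 0.189 CPM in KO2. The antisense gene AL117335.1, which overlaps the 5′ end of SIRPA, had 0 or 1 count per library.

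Because SIRPA is best known on myeloid cells, 16 leukocyte markers were examined beside it. Their summed level was 2.08 to 2.70 CPM over the WT libraries, 2.18 to 2.87 in KO1 and 2.08 to 3.02 in KO2, so these ranges overlapped in all 3 groups. Of the 16, 4 had 0 counts in every library, among them AIF1, MS4A1 and FCGR3A, and 5 of the 16 passed the filter on low counts. The pan-leukocyte gene PTPRC was at 0.0574 to 0.224 CPM. The highest value of any marker was 1.22 CPM, for the macrophage receptor CSF1R. Within the sum, CSF1R fell in KO1 (log2 change -1.35, edgeR adjusted p = 0.0114) and the T cell gene CD3D rose there (1.38, adjusted p = 0.0194), at 0.387 and 0.251 CPM. In KO2 CSF1R and CD3D stood at 0.02 and 0.04 (adjusted p = 0.968 and 0.952). The other tested markers did not pass the threshold. CD14, a myeloid gene, was at 0.78 in KO1 and 0.55 in KO2 (adjusted p = 0.0553 and 0.16). LYZ, also myeloid, was at 0.63 and 0.39 (adjusted p = 0.0774 and 0.257). PTPRC was at -0.25 and -0.26 (adjusted p = 0.729 and 0.71). The part of these markers in the values of SIRPA was not tested.

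CD47, the ligand that SIRPA binds, was moderately higher in both clones. Its level was 83.2, 77.5 and 83.3 CPM in the libraries of WT, 99.5, 111 and 104 in those of KO1 and 109, 106 and 114 in those of KO2. Each clone lay above WT in all libraries, and the clones overlapped each other. The log2 change was 0.37 ± 0.05 in KO1 and 0.44 ± 0.05 in KO2, with -0.07 ± 0.05 between the clones. CD47 lies at chr3:108043094-108091862 on the minus strand, among neighbours with medians of 0.16 and 0.13.

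**Figure D2:**
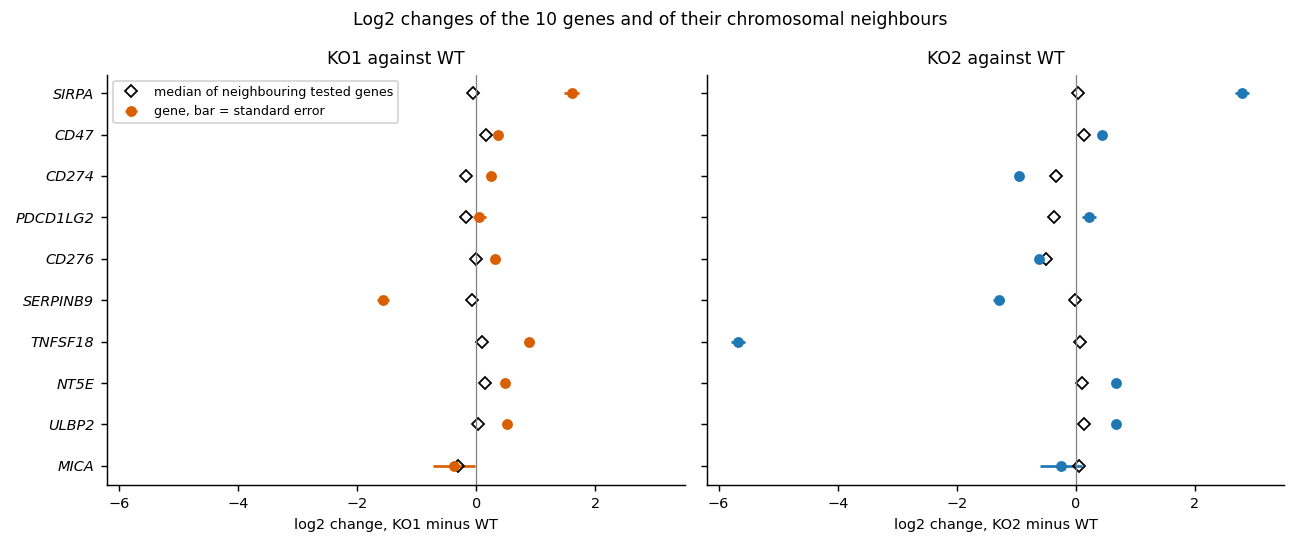
Log2 change of each of the 10 genes against WT, KO1 on the left and KO2 on the right; filled points are the genes with their standard error and open diamonds are the median of the 20 nearest tested genes. SIRPA at 1.60 and 2.79 and TNFSF18 at -5.68 in KO2 lie far from their neighbours, whereas CD276 at -0.62 in KO2 lies beside a neighbour median of -0.50.

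CD274, the main ligand of PD-1, went in opposite directions in the clones. Its level was 41.6, 39.8 and 40.7 CPM in the libraries of WT, 45.5, 51.1 and 47.8 in those of KO1 and 21.5, 20.0 and 21.2 in those of KO2, and no groups overlapped. The log2 change was 0.24 ± 0.06 in KO1 and -0.96 ± 0.06 in KO2, which left KO2 at 0.513 of the WT level, and the clones differed by 1.20 ± 0.06. PDCD1LG2, the other ligand of PD-1, did not follow it. Its level was 5.06, 4.95 and 4.66 CPM in the libraries of WT, 4.45, 5.33 and 5.41 in those of KO1 and 6.47, 5.43 and 5.20 in those of KO2. KO1 overlapped both other groups, and KO2 lay just above WT. The log2 change of PDCD1LG2 was 0.05 ± 0.11 in KO1 and 0.22 ± 0.11 in KO2.

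The genes of these ligands are close together on chromosome 9, on the plus strand: CD274 at chr9:5450503-5470566 and PDCD1LG2 at chr9:5510570-5571254, 40003 bases apart. The 20 nearest tested genes had a median log2 change of -0.17 in KO1 and -0.33 in KO2 around CD274, and of -0.17 and -0.37 around PDCD1LG2. CD274 in KO2 was therefore below its neighbours, and PDCD1LG2 was above them. Copy number was not measured here.

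CD276 had the same order of groups as CD274. Its level was 49.6, 58.2 and 57.3 CPM in the libraries of WT, 72.6, 61.8 and 71.5 in those of KO1 and 34.7, 37.4 and 34.9 in those of KO2. The groups did not overlap, although the lowest KO1 library was close to the highest of WT. The log2 change was 0.32 ± 0.07 in KO1 and -0.62 ± 0.07 in KO2, with 0.94 ± 0.07 between the clones. CD276 lies at chr15:73683966-73714518 on the plus strand, and the median log2 change of the 20 genes around it was 0.00 in KO1 and -0.50 in KO2, so in KO2 its change was near that of its surroundings. With a trend on GC content removed, CD276 stood at 0.56 in KO1 and -0.34 in KO2, and its neighbours at 0.11 and -0.48.

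SERPINB9, the granzyme B inhibitor, was lower in both clones. Its level was 9.02, 9.05 and 10.2 CPM in the libraries of WT, 3.13, 2.96 and 3.42 in those of KO1 and 3.94, 3.55 and 3.97 in those of KO2. All libraries of the clones lay far below all of WT, and KO1 lay just below KO2. The log2 change was -1.57 ± 0.10 in KO1, a level 2.97-fold lower, and -1.30 ± 0.10 in KO2, 2.47-fold lower. The difference of -0.27 ± 0.10 between the clones was small beside either. SERPINB9 lies at chr6:2887266-2903280 on the minus strand, and its neighbours had medians of -0.08 and -0.02. The TATA box printed in capitals above lies just upstream of its RefSeq start.

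ULBP2 and MICA, the NKG2D ligands, differed from each other. ULBP2 stood at 14.5, 15.3 and 14.3 CPM in the libraries of WT, 21.0, 21.1 and 21.1 in those of KO1 and 23.5, 24.4 and 22.3 in those of KO2, and no groups overlapped. Its log2 change was 0.52 ± 0.06 in KO1 and 0.67 ± 0.06 in KO2. MICA stood at 5.64, 6.73 and 6.04 CPM in the libraries of WT, 7.59, 3.00 and 3.69 in those of KO1 and 3.98, 5.08 and 6.34 in those of KO2. All 3 groups of MICA overlapped, and the spread within KO1, 4.76 ± 2.47 CPM, exceeded every difference between groups. The log2 change of MICA was -0.37 ± 0.35 in KO1 and -0.25 ± 0.35 in KO2. It rested on the first KO1 library: without it the change in KO1 was -0.85, and KO1 minus KO2 went from -0.12 to -0.61.

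Relatives bear on these values as well. Of the 50-base stretches of ULBP2, 32.2% occur in other genes, 29.4% in RAET1L and 11.6% in RAET1G. RAET1L was at 0.173, 0.165 and 0.191 CPM in the libraries of WT, 0.128, 0.139 and 0.218 in those of KO1 and 1.03, 1.15 and 0.899 in those of KO2, and rose in KO2 by 2.54 ± 0.28 on the log2 scale (edgeR adjusted p = 2.54e-06). RAET1G was at 1.77 to 2.35 CPM in WT, 1.77 to 2.50 in KO1 and 2.38 to 3.02 in KO2 and did not pass the threshold. In KO2 its log2 change of 0.39 (adjusted p = 0.0551) was close to it and passed in 6 of 17 alternatives, among them without WT library 2 (0.47), KO1 library 2 (0.38) or KO2 library 3 (0.49) and with the GC trend removed (0.49). Between the clones it was at -0.37 (adjusted p = 0.0682) and passed in 4 of 17, among them without KO1 library 3 (-0.48) or KO2 library 3 (-0.47). ULBP3, which shares no 50-base stretch with ULBP2, was at 21.9, 22.0 and 23.1 CPM in the libraries of WT, 23.5, 23.1 and 23.5 in those of KO1 and 30.2, 29.5 and 31.6 in those of KO2, a rise of 0.45 ± 0.05 in KO2 (adjusted p = 6.58e-06). MICB, the close relative of MICA, was uneven within WT and KO2 and even within KO1, where all libraries lay below WT: 1.79, 0.806 and 2.89 CPM in the libraries of WT, 0.436, 0.354 and 0.355 in those of KO1 and 3.12, 1.67 and 0.221 in those of KO2. Its log2 change of -2.26 ± 0.91 in KO1 missed the threshold (adjusted p = 0.104) and passed it with DESeq2 (adjusted p = 0.0288), with only WT and KO1 fitted (0.00879) and without KO2 library 3 (0.0134). Between the clones MICB was at -2.10 (adjusted p = 0.109), and passed at -2.12 with DESeq2 and at -2.63 without KO2 library 3. MICA shares 1.89% of its 50-base stretches with MICB and 0.546% with HCP5. HCP5 overlaps MICA on the same strand and had 1 to 5 counts per library. How reads in the overlap were counted is not stated in the sources used here.

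**Figure D3:**
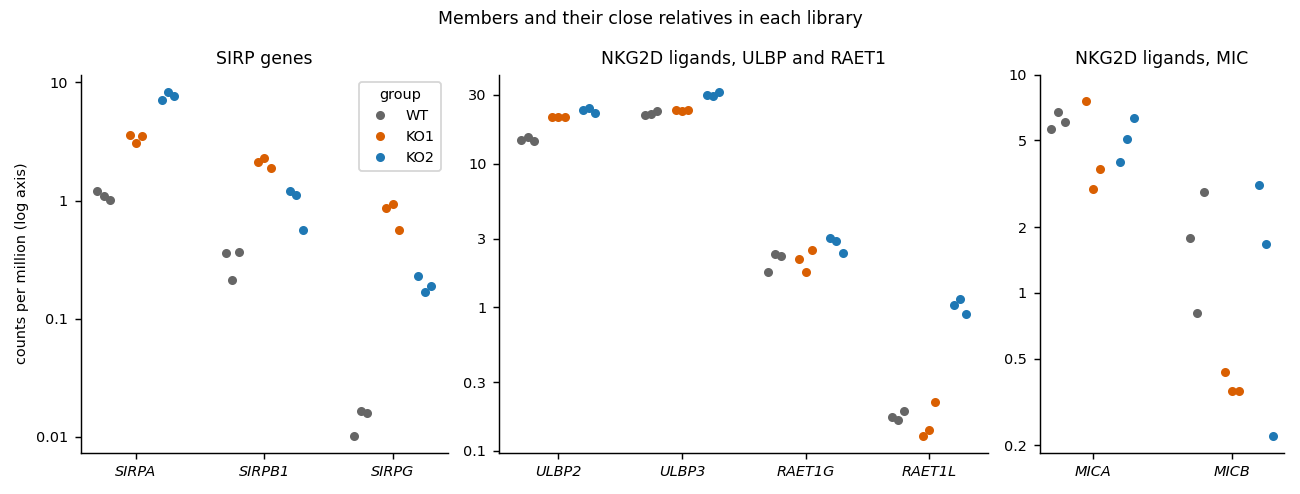
CPM on a log axis in each of the 9 libraries for SIRPA, ULBP2 and MICA and for their close relatives; points are libraries, coloured by group. SIRPB1 is highest in KO1 whereas SIRPA is highest in KO2, RAET1L is raised in KO2, MICA scatters within KO1, and MICB scatters within WT and KO2 but not within KO1.

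TNFSF18, which costimulates T cells through GITR, showed the widest range of the 10 genes. Its level was 21.1, 19.6 and 18.7 CPM in the libraries of WT, 34.8, 39.9 and 35.7 in those of KO1 and 0.497, 0.364 and 0.315 in those of KO2. KO1 lay above WT and KO2 far below it in all libraries. KO2 still had 26, 24 and 20 counts, above the limit of 3 that a count of 0 allows, where WT had 1175 to 2079. The log2 change was 0.89 ± 0.08 in KO1, 1.86-fold, and -5.68 ± 0.12 in KO2, a level 51.1-fold lower. The clones differed 94.8-fold. TNFSF18 lies at chr1:173039960-173050963 on the minus strand, and its 20 nearest tested genes had medians of 0.09 in KO1 and 0.06 in KO2. TNFSF4, a TNF-family ligand 132770 bases away, was at 0.732 CPM in WT, 0.746 in KO1 and 0.771 in KO2 and passed the threshold in no contrast. TNFSF18 shares no 50-base stretch with another gene.

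NT5E was the most abundant of the genes and higher in both clones. Its level was 452, 442 and 470 CPM in the libraries of WT, 611, 659 and 642 in those of KO1 and 713, 719 and 736 in those of KO2, and no groups overlapped. The log2 change was 0.49 ± 0.04 in KO1 and 0.67 ± 0.04 in KO2, with -0.18 ± 0.04 between the clones. NT5E lies at chr6:85449584-85495791 on the plus strand, among neighbours with medians of 0.15 and 0.10. ULBP2, at chr6:149942000-149949235, and MICA, at chr6:31399784-31415315, are on the same chromosome and strand, with neighbour medians of 0.02 and 0.13 for ULBP2 and -0.30 and 0.05 for MICA.

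The profiles nearest to the 2 genes with the widest changes were sought among 10606 tested genes, by the root mean square difference of log2 level relative to WT over 9 libraries. For SIRPA these were MAMDC2 at 0.24, IL1A, an interleukin, at 0.33 and the chemokine gene CXCL3 at 0.40. Their log2 changes in KO1 and KO2 were 1.36 and 2.55 for MAMDC2, 1.93 and 2.40 for IL1A, and 1.59 and 2.10 for CXCL3. None of the genes searched came as close to TNFSF18: ARMCX2 was nearest at 1.04, with -0.04 in KO1 and -4.07 in KO2. The long noncoding RNA UCA1, at 1.25, had 1.21 and -3.45, and MYCT1, at 1.38, had 1.01 and -3.24.

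The pathways around the genes were then examined in 8 lists of companion genes drawn from textbook knowledge, 145 genes of which 104 were tested. In KO1, 42 rose and 11 fell (51% called beside 34.8% of all genes), in KO2 36 rose and 28 fell (61.5% beside 49.4%), and 67.3% differed between the clones, beside 48.9% of all genes. Their median log2 change was 0.12 in KO1 and 0.01 in KO2. These shares describe the lists and carry no test. All adjusted p-values that follow are from edgeR over all tested genes, and the number before each is a log2 change against WT.

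Of 12 tested genes of the SIRP and CD47 pathway, 7 rose and 1 fell in KO1 (66.7% called, beside 34.8% of all genes). In KO2, 5 rose and 5 fell (83.3%, beside 49.4%). All 12 differed between the clones, where 48.9% of all genes did, and 10 to 12 were called over the alternatives. QPCTL, the enzyme that forms the pyroglutamate of CD47 needed for SIRPA binding, fell from 20.4 ± 1.39 CPM in WT to 15.3 ± 1.43 in KO1 (log2 change -0.41, adjusted p = 0.00111) and 10.5 ± 0.634 in KO2 (-0.95, adjusted p = 2.05e-07). Its relative QPCT rose from 11.4 CPM to 19.1 in KO1 (0.75, adjusted p = 2.78e-05) and to 14.2 in KO2 (0.32, adjusted p = 0.0125). The call of QPCT in KO2 was lost without WT library 2 (0.27), WT library 3 (0.29) or the first KO2 library (0.28). THBS1, a secreted ligand of CD47, rose from 1050 to 1730 CPM in KO1 (0.72, adjusted p = 1.74e-09) and fell to 888 in KO2 (-0.25, adjusted p = 3.69e-05). CD24, another signal against phagocytosis, rose in KO2 from 1.56 to 4.86 CPM (1.65, adjusted p = 8.2e-07) and stood at 1.73 in KO1 (0.15, adjusted p = 0.524).

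The list of genes known to act on PD-L1 transcription or protein stability held 23, all tested. In KO1, 10 rose and 2 fell (52.2% called, beside 34.8% of all genes). In KO2, 9 rose and 4 fell (56.5%, beside 49.4%). IRF1, the factor through which interferon induces CD274, rose in KO1 from 16.7 ± 0.472 to 23.1 ± 0.376 CPM (0.47, adjusted p = 2.21e-05) and stood at 17.6 ± 0.460 in KO2 (0.08, adjusted p = 0.307). ZDHHC9, which palmitoylates PD-L1 and so stabilises it, rose in KO1 (0.31, adjusted p = 3.74e-05) and fell in KO2 from 93.2 to 54.6 CPM (-0.77, adjusted p = 1.33e-09). HIP1R, which sends PD-L1 to the lysosome, fell in KO2 (-0.62, adjusted p = 0.000393, and -0.68 to -0.27 over the alternatives). In KO1 it stood at -0.11 (adjusted p = 0.447), a value that became 0.17 with the GC trend removed.

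Of 15 tested checkpoint ligands of other kinds, 4 rose and 2 fell in KO1 (40% called, beside 34.8% of all genes). In KO2, 2 rose and 7 fell (60%, beside 49.4%), and 5 were called without the first WT library or without the first KO2 library. CEACAM1, an adhesion molecule that also binds TIM-3, rose from 0.557 ± 0.186 CPM to 1.59 ± 0.149 in KO1 (1.48 ± 0.20, adjusted p = 5.16e-05) and 2.03 ± 0.104 in KO2 (1.83 ± 0.20, adjusted p = 2.68e-06). BTN3A1, a butyrophilin seen by gamma delta T cells, rose in KO1 (0.75, adjusted p = 8.25e-06) and fell in KO2 (-0.28, adjusted p = 0.0137), the latter not called without the first WT library (-0.25) or the first KO2 library (-0.22). Its close relative BTN3A2 rose in KO1 (0.65, adjusted p = 5.35e-07) and stood at -0.09 in KO2 (adjusted p = 0.213). NECTIN1, a ligand of CD96, fell in KO2 (-0.64, adjusted p = 4.59e-06) and stood at 0.18 in KO1 (adjusted p = 0.0644), where it passed the threshold at 0.26 without the second WT library, at 0.25 without the second KO1 library and at 0.41 with the GC trend removed.

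The list of clade B serpins and the granzyme and death receptor route had 15 tested genes. In KO1, 7 rose and 2 fell (60% called, beside 34.8% of all genes). In KO2, 7 rose and 5 fell (80%, beside 49.4%). SERPINB2 rose from 2.37 ± 0.131 CPM to 7.44 ± 0.450 in KO1 (1.65, adjusted p = 4.28e-08) and 5.43 ± 0.664 in KO2 (1.19, adjusted p = 4.32e-07), opposite to SERPINB9. SERPINB7 fell in KO2 from 5.08 to 1.49 CPM (-1.77, adjusted p = 3.59e-07) and stood at 5.55 in KO1 (0.13, adjusted p = 0.522). The death receptor FAS fell in KO1 (-0.46, adjusted p = 0.00473) and rose in KO2 from 4.63 ± 0.313 to 11.1 ± 0.119 CPM (1.26, adjusted p = 1.41e-07). CASP8, the caspase that FAS engages, rose in KO2 from 32.7 to 61.7 CPM (0.91, adjusted p = 2.04e-09) and by 0.18 in KO1 (adjusted p = 0.0155), a call lost at 0.17 without the second WT library. GZMB, which SERPINB9 inhibits, had 0 to 3 counts per library.

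Of 16 tested natural killer ligands, adhesion partners and sheddases, 7 rose in KO1 (43.8% called, beside 34.8% of all genes). In KO2, 5 rose and 2 fell (43.8%, beside 49.4%). ICAM1, the adhesion ligand of LFA-1, rose in KO1 from 30.1 ± 1.16 to 56.8 ± 4.04 CPM (0.91, adjusted p = 6.99e-08). In KO2 it stood at 30.5 ± 2.06 CPM (0.02, adjusted p = 0.856), and passed the threshold at 0.15 with the GC trend removed. The proteases MMP14 and ADAM10, which can shed NKG2D ligands, moved in opposite directions in the clones. MMP14 rose in KO1 (0.56, adjusted p = 9.61e-07) and fell in KO2 (-0.56, adjusted p = 3.38e-07). ADAM10 rose in KO1 (0.52, adjusted p = 1.08e-06) and fell in KO2 (-0.28, adjusted p = 0.000167). Other proteases of the list did not share this: ADAM9 rose in KO1 (0.33, adjusted p = 6.63e-06) and in KO2 (0.40, adjusted p = 3.22e-07). ADAM17 rose in KO1 (0.39, adjusted p = 3.96e-05) and stood at 0 in KO2 (adjusted p = 0.954). PDIA6, a disulfide isomerase that takes part in the shedding of MICA, rose in KO1 (0.50, adjusted p = 8.46e-08) and in KO2 (0.19, adjusted p = 0.000471).

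Of 8 tested TNF-family ligands, 2 rose and 1 fell in KO1 (37.5% called, beside 34.8% of all genes). In KO2, 2 rose and 2 fell (50%, beside 49.4%). TNFSF15 (TL1A), a costimulator of T cells, had the directions of TNFSF18. It was at 4.68, 4.49 and 4.62 CPM in the libraries of WT, 11.5, 12.2 and 12.7 in those of KO1 and 1.42, 1.56 and 1.81 in those of KO2, a log2 change of 1.40 ± 0.09 in KO1 (adjusted p = 4.51e-08) and -1.52 ± 0.11 in KO2 (adjusted p = 2.05e-08). TNFSF12 (TWEAK) in KO1, at 0.37 (adjusted p = 0.0484), lost its call in 7 of 17 alternatives, among them without WT library 1 or 3 (0.32 and 0.35), KO1 library 1 or 3 (0.29 and 0.39) or the second KO2 library (0.37). TNFSF13 (APRIL), at -0.61 in KO1 (adjusted p = 0.0215) and -0.53 in KO2 (adjusted p = 0.0348), lost its call in KO1 without the first or second WT library (-0.50 and -0.57) or the second KO1 library (-0.45). In KO2 it was lost without any 1 of the KO2 libraries (-0.55, -0.57 and -0.49) or without the first or second WT library (-0.43 and -0.51). In KO1, 1 ligand of this list was called without the first WT library. In KO2, 2 were called without the first or second WT library and without KO2 library 2 or 3.

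Of 12 tested genes of extracellular adenosine, 5 rose and 3 fell in KO1 (66.7% called, beside 34.8% of all genes). Without the second KO1 library 5 were called there. In KO2, 6 rose and 3 fell (75%, beside 49.4%). ADORA1, an adenosine receptor, rose from 0.507 ± 0.0625 CPM to 1.51 ± 0.249 in KO1 (1.55, adjusted p = 1.11e-05) and 3.12 ± 0.323 in KO2 (2.60, adjusted p = 1.2e-08). ENPP1, which makes AMP from ATP, fell in KO2 from 136 ± 7.19 to 61.4 ± 2.56 CPM (-1.15, adjusted p = 2.05e-10) and stood at 144 ± 8.19 in KO1 (0.08, adjusted p = 0.262). ENTPD1 (CD39), which forms the AMP that NT5E cleaves, fell in KO2 (-0.63, adjusted p = 0.00017). In KO1 it stood at -0.23 (adjusted p = 0.0919), and passed the threshold at -0.29 with the GC trend removed. The nucleoside transporter SLC29A2 fell in KO2 (-0.61, adjusted p = 0.000197). In KO1 it was at -0.34 (adjusted p = 0.02), a call lost with the GC trend removed (-0.09) and without the first or second WT library (-0.32 and -0.27) or KO1 library 2 or 3 (-0.29 and -0.35).

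The last list held 10 receptors and partners, some of the 10 genes themselves and some of companion ligands. Of the former, PDCD1, which encodes PD-1, had 0 counts in every library, and KLRK1 (NKG2D) and TNFRSF18 (GITR) had 0 or 1. Of the latter, TIGIT, a receptor of PVR, had 0. RGMB, which binds PD-L2, and CD226 and CD96, which bind PVR, were tested. RGMB was at 76.1 ± 1.24 CPM in WT, 78.2 ± 0.514 in KO1 (0.04, adjusted p = 0.513) and 73.0 ± 1.94 in KO2 (-0.06, adjusted p = 0.251).

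**Figure D4:**
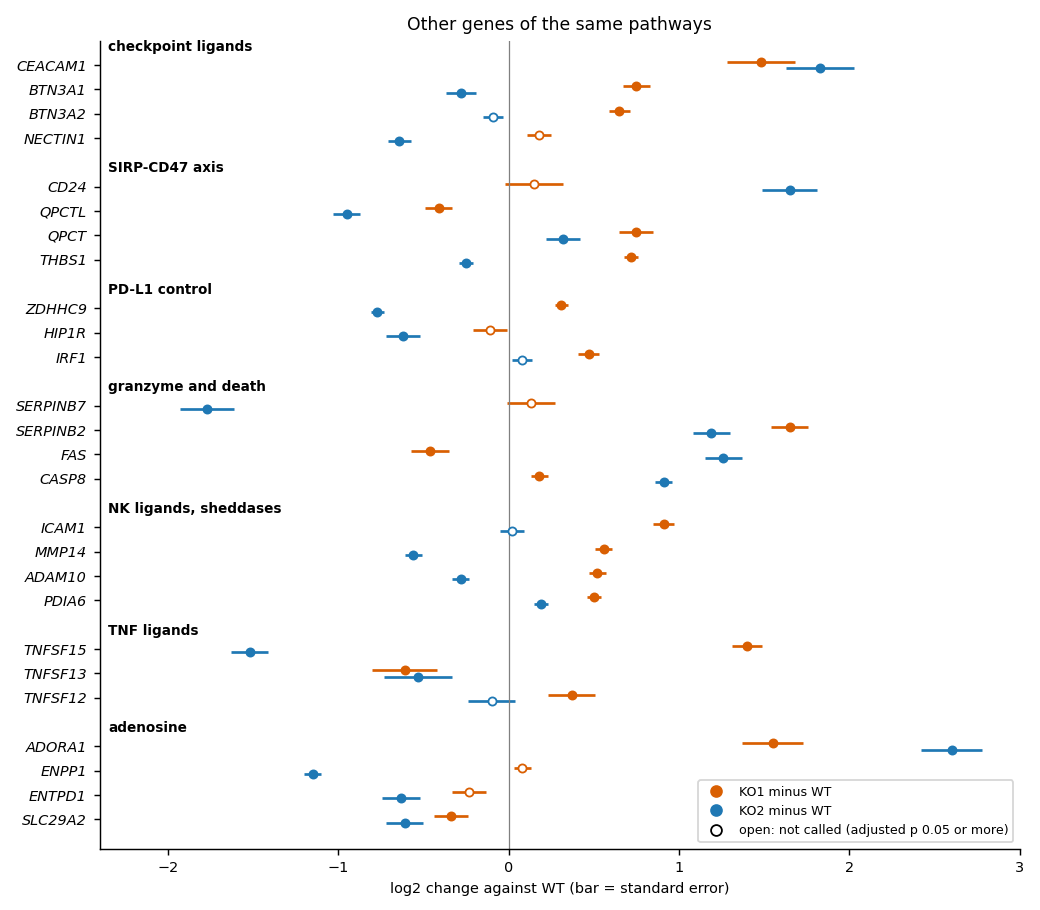
Log2 change against WT of the companion genes named by their rank in each list, by pathway, KO1 in orange and KO2 in blue. Bars are standard errors and open points did not pass the threshold. CEACAM1, SERPINB2 and ADORA1 are to the right of 0 in both clones, whereas MMP14 at 0.56 and -0.56 and TNFSF15 at 1.40 and -1.52 lie on opposite sides.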

How the data were processed

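RNA was extracted with a column kit and made into TruSeq libraries, per the labels' protocols. The authors deposited raw read counts per gene symbol, without normalization, in 1 table per library. The submitters' processing notes list Trim Galore and HISAT2, beside the builds hg38, GRCm38 and mm10 with no role for any of them. The sources used here do not state the counter, the annotation, the strand setting or the treatment of reads with several places.

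The 10 genes, the companion lists and the tests were chosen with earlier results of these data known. Counts were fitted with edgeR 4.0.16 in R 4.3.3 (filterByExpr, TMM factors, robust quasi-likelihood, 1 mean per group over 9 libraries), and p-values were adjusted over 17759 genes with a threshold of 0.05. A standard error is the log2 change divided by the square root of the F value. The biological coefficient of variation was 7.46%, and libraries of 1 group differed by a chi-square of 5.85 to 28.7 per degree of freedom. CPM values use TMM-scaled totals, and limits at 0 counts cover counting error only. Up to 4 companions per list were named, those called in at least 1 clone whose mean log2 CPM was 0 or more, ranked by the larger absolute change. A gene that this rule names is not reported here. Relatives of the 10 genes were named for shared sequence. ADAM9 and ADAM17 were added beside the other proteases of their list. GENCODE 29 (GRCh38) matched 55878 symbols and gave positions, exon length and GC content. The nearest tested genes were 10 on each side of a gene. The code was tested on simulated data. DESeq2 1.42.0 (through its own size factors), other scalings and filters, a GC correction and leaving out each library were alternatives.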

Additional observations from a re-analysis of the deposited data

Results flagged for a closer look

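The companion genes and relatives listed here differed between the clones in their change from WT, by the edgeR test of KO1 against KO2 itself, 48.9% of all tested genes being called in that contrast. Values are log2 differences, KO1 minus KO2, with adjusted p. Among checkpoint ligands they were 1.03 for BTN3A1 (7.94e-08), 0.74 for BTN3A2 (2.93e-08) and 0.82 for NECTIN1 (2.72e-07). Around SIRPA and CD47 they were -1.49 for CD24 (1.43e-06), 0.54 for QPCTL (6.23e-05), 0.43 for QPCT (0.00161), 0.96 for THBS1 (9.87e-12), 1.14 for SIRPB1 (0.000763) and 2.01 for SIRPG (6.2e-05). Among genes that act on PD-L1 they were 1.08 for ZDHHC9 (1.73e-11), 0.51 for HIP1R (0.0015) and 0.39 for IRF1 (4.6e-05).

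Around SERPINB9 the differences were 1.90 for SERPINB7 (1.1e-07), 0.45 for SERPINB2 (0.00204), -1.72 for FAS (3.79e-09) and -0.74 for CASP8 (1.22e-08). Around the NKG2D ligands they were 0.90 for ICAM1 (1.51e-08), 1.12 for MMP14 (1.17e-10), 0.81 for ADAM10 (2.09e-09), 0.31 for PDIA6 (2.91e-06), -2.64 for RAET1L (1.15e-06) and -0.38 for ULBP3 (2.61e-05). Among TNF-family ligands they were 2.92 for TNFSF15 (6.91e-12) and 0.46 for TNFSF12 (0.0112), the latter lost at 0.31 without KO2 library 3. In the adenosine pathway they were -1.05 for ADORA1 (3.6e-05), 1.23 for ENPP1 (6.49e-11), 0.39 for ENTPD1 (0.00647) and 0.27 for SLC29A2 (0.0432). The call of SLC29A2 was lost without KO1 library 1 or 3 (0.27 and 0.26) or KO2 library 3 (0.16). All came from the same 2 clones, so the differences are not independent of one another.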

How the results depend on the processing

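Over 17 alternatives the number of genes called stayed within 1.5 times: 4690 to 6945 in KO1 (6178 as reported), 7685 to 9707 in KO2 (8776) and 7595 to 9983 between the clones (8679). Companion genes called ranged from 43 to 59, 55 to 72 and 62 to 80. Of 510 refitted values of the 10 genes, 481 kept direction and side of the threshold, and 4 took the other sign below it: PDCD1LG2 in KO1 (-0.02 with the GC trend removed) and MICA between the clones (0.14 and 0.05 without KO1 library 2 or 3, 0.06 without KO2 library 3). The changes of side were all between the clones (SERPINB9 from -0.26 to -0.21, ULBP2 from -0.15 to -0.11, CD47 -0.12 with the GC trend removed, MICA -0.61 without the first KO1 library) except MICA in KO1. SERPINB9 lost its call between the clones in 10 of 17 alternatives and ULBP2 in 12 of 17. Of 1626 companion values, 11 took the other sign, with the GC trend removed HIP1R in KO1 (0.17, then past the threshold) and TNFSF12 in KO2 (0.18). The others stayed below the threshold and came from leaving out 1 library, over which RAET1G ran from -0.09 to 0.15 and RAET1L from -0.38 to 0.05 in KO1, MICB from -0.96 to 0.37, ICAM1 from -0.03 to 0.07 and TNFSF12 from -0.19 to 0.05 in KO2, and TNFSF13 from -0.17 to 0.09 between the clones. The cause was not tested. Depth limits SIRPG, RAET1L and TNFSF18 in KO2, which rest on few counts. Some called falls in KO2 kept their call but varied in size: NECTIN1 from -0.71 to -0.38, SLC29A2 from -0.70 to -0.33 and MMP14 from -0.59 to -0.35.

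With the replicate number as a block, 5544, 8302 and 8240 genes and 49, 59 and 68 companions were called in KO1, KO2 and between the clones. No consistent pairing by number was seen: same-numbered libraries correlated at -0.53 to 0.48 in their deviations from group means, and the own number correlated best in 6 of 18 cases. Deviations from the mean of 3 libraries constrain one another, so these values cannot settle whether any numbers pair the samples.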
